A study of Mus musculus with 10 samples.

Results

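The regions described here are places on mouse chromatin where a single SOX15 ChIP-seq library had a peak, no SOX2 library had one, and no protein-coding gene began or ended nearby. They were chosen from the deposited peak calls. The peaks of the 3 SOX15 libraries were merged where they shared at least 1 bp, which gave 967 regions. A region was kept when its peaks came from exactly 1 library, when it shared no base with a peak of either SOX2 library, and when its summit lay over 1 kb from both ends of each of 21631 protein-coding genes. Of the 967 regions 491 (50.8%) met the rule. The share was set by the calls that chose the regions and carries no test. Each of the 491 consisted of 1 peak. SOX15 replicate 1 held 21 of them, replicate 2 held 394 and replicate 3 held 76.

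The study mapped HA-tagged SOX15 and HA-tagged SOX2 in mouse embryonic stem cells. All cells were grown in 2i/LIF, a medium with a pair of kinase inhibitors and the cytokine LIF that keeps such cells in the naive pluripotent state, and were fixed with 1% formaldehyde. The groups used here are Sox15-HA ChIP (3 libraries) and Sox2-HA ChIP (2 libraries), and the 5 input libraries were not analysed here. The labels name neither the cell line nor the locus and promoter of the tagged genes. They leave it unstated if the replicates came from separate cultures, and the spread between libraries may thus be technical.

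SOX15 and SOX2 both carry an HMG box, a DNA-binding domain that recognises short sequences built around ACAATG and bends the DNA. SOX2 binds many sites together with OCT4 (Pou5f1) and is required for pluripotency. SOX15 is also made in mouse embryonic stem cells, and in mouse it has been tied to Hand1 in trophoblast giant cells and to Foxk1 in muscle progenitors.

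The only sequence available for members came from the RefSeq promoter windows of GRCm38.p6, which has the coordinates of mm10. A window holds 250 bases before and 50 after a transcript start. It can overlap a member because some transcripts start well inside a gene, or belong to a non-coding gene, so their start is not a protein-coding gene end. Of the 491 members 3 overlapped a window, and all 3 are shown because they are the members with bases in such a window. The members at Ubtf and Zbtb11 cover the start itself, and the one at 5430416N02Rik lies before it. The capitals mark the bases under the member peak, read 5′ to 3′ on the strand of the gene.
Ubtf: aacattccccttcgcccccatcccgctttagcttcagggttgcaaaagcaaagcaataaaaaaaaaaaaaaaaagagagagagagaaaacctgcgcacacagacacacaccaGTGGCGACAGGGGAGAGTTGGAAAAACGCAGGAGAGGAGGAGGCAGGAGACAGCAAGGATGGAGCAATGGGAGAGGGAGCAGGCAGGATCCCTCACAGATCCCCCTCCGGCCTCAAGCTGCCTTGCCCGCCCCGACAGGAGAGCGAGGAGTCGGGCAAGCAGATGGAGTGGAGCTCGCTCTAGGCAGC
Zbtb11: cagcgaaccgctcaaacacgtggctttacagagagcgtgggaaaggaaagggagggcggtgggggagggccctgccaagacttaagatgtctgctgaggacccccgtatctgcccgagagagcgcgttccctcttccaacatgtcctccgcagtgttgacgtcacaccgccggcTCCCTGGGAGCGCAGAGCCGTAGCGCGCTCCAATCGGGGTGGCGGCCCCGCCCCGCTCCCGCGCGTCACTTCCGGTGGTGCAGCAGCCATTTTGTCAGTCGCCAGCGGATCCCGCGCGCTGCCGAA
5430416N02Rik: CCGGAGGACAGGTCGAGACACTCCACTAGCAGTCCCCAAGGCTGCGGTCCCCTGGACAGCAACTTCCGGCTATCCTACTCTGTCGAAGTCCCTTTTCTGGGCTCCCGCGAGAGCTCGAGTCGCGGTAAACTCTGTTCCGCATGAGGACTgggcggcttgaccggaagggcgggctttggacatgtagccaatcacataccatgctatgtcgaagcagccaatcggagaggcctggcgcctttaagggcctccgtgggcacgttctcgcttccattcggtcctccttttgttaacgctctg
The Ubtf window (chr11:102319543-102319842, minus strand) lay in a gene for a factor of ribosomal RNA transcription, and the replicate 2 peak covered 188 of its 300 bases with a fold of 4.84. The Zbtb11 window (chr16:55973554-55973853, plus strand) belongs to a zinc-finger gene, and the replicate 2 peak covered 126 bases with a fold of 5.41. The window of the long non-coding RNA 5430416N02Rik (chr5:100429486-100429785, minus strand) was covered over 149 bases by a replicate 3 peak with a fold of 5.01. In these 3 windows the summits lay 82, 45 and 141 bp from the transcript start. The GC content of the windows was 56.3%, 66.0% and 59.3%, against a median of 52.7% over all 32851 windows.

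Neither the SOX core letters ACAATG nor the octamer letters ATGCAAAT, the sequence recognised by OCT4, occurred on either strand of these 3 windows. Over all windows of the same length, 12.6% held the first and 1.74% the second. A window without these letters says nothing on whether a factor bound there. A second replicate 2 member lay in Ubtf at chr11:102317614-102317812, with a fold of 4.64.

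The libraries contributed very unequally. Replicate 2 alone called 48.7% of the 967 merged regions (471), replicate 3 alone called 26.5% (256) and replicate 1 alone called 4.14% (40). Of these 767 single-library regions (79.3%), a SOX2 peak removed 10 from replicate 1, 15 from replicate 2 and 129 from replicate 3, and nearness to a gene end alone removed a further 9, 62 and 51. The members then made up 9.68% of the 217 replicate 1 peaks (Wilson 95% interval 6.42 to 14.3), 58.6% of the 672 replicate 2 peaks (54.9 to 62.3) and 17.4% of the 437 replicate 3 peaks (14.1 to 21.2). Most of the replicate 2 list was therefore of this kind, and most of the replicate 1 and replicate 3 lists was not. Intervals throughout cover counting error only, and regions of 1 library are not replicates of a condition, so no difference between the libraries was tested.

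The depth of each library is unknown because the lists give no read counts. The smallest −log10 q-value of a list was 2.76, 2.03 and 1.31 for SOX15 replicates 1, 2 and 3, so the lists do not reach equally far down, and a region absent from a list may lie under the caller's threshold.

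By fold enrichment, the authors' linear ratio over background, the members sat in the lower part of each list. The median fold was 5.83 in replicate 1 (range 4.59 to 8.99), 4.78 in replicate 2 (1.62 to 9.16) and 5.40 in replicate 3 (1.53 to 9.22). The other peaks of the same lists had medians of 8.67, 6.28 and 6.66. The highest-ranked member stood at the 59.4th percentile of its list in replicate 1, the 87.9th in replicate 2 and the 78.6th in replicate 3. Folds are comparable only within a list, and these values helped to choose the members, so they describe them.

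The q-values did not follow the fold in the same way in the 3 lists. Median −log10 q was 5.89 for the members of replicate 1 and 3.92 for those of replicate 3, below the 17.9 and 7.03 of the other peaks in those lists. In replicate 2 it was 14.5 for the members and 10.4 for the other peaks. A −log10 q of at least 5 was reached by 14 of 21 members in replicate 1, 374 of 394 (94.9%) in replicate 2 and 22 of 76 (28.9%) in replicate 3.

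The contrast also appeared at equal fold. Among replicate 2 peaks with a fold from 3 to 4, the 83 members had a median −log10 q of 11.5 and the 11 other peaks 4.30. From 4 to 5 the medians were 13.8 for 109 members and 5.65 for 52 other peaks, and from 6 to 8 they were 19.6 for 73 members and 10.5 for 57 other peaks. From 8 to 10 they were 20.7 for 20 members and 19.4 for 25 other peaks, the closest pair. In replicate 1 the members lay below the other peaks at equal fold, with 5.34 for 9 members and 6.18 for 26 other peaks between 5 and 6. In replicate 3 the same bin held 4.05 for 28 members and 4.53 for 74 other peaks. The members of replicate 2 thus had more significant calls than other peaks of the same fold, and those of replicates 1 and 3 less significant ones.

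**Figure D1:**
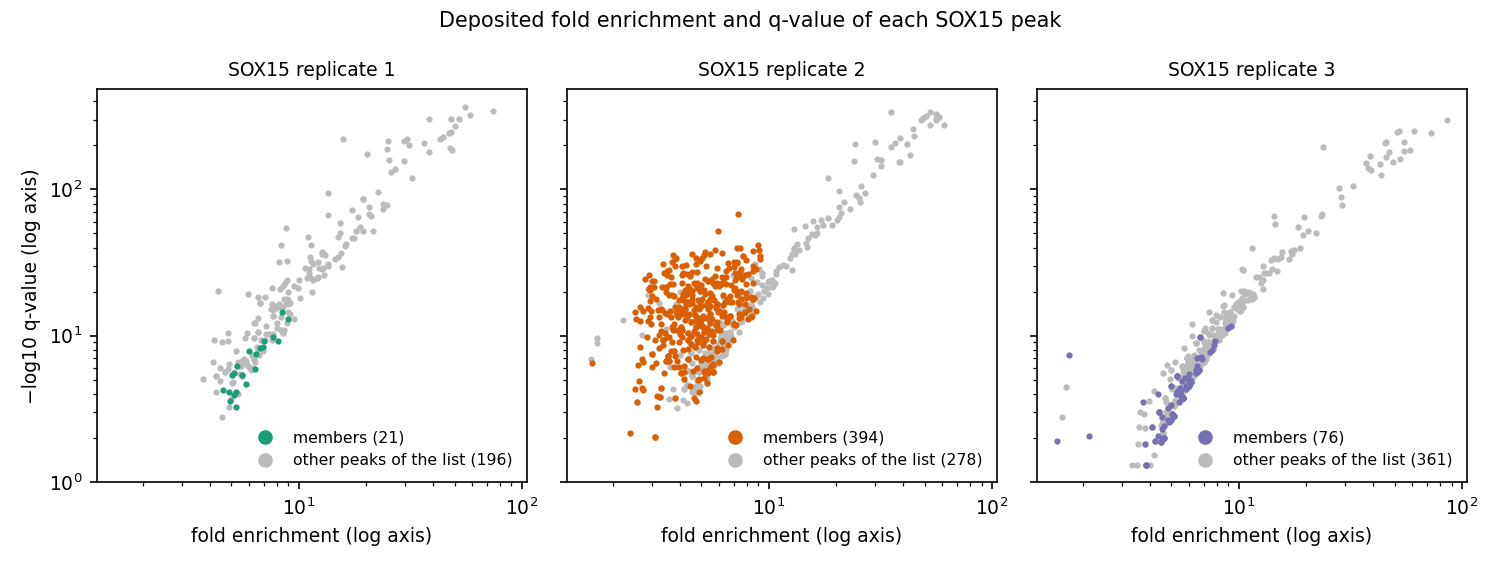
Fold enrichment (x axis, log scale) and −log10 q-value (y axis, log scale) of every peak in the 3 SOX15 lists, 1 panel per replicate, with members in colour and the other peaks of the list in grey. The 394 replicate 2 members form a cloud that reaches a −log10 q of 67.5 at folds under 10, many of them above the narrow band of the grey peaks, while most of the 21 and 76 members of replicates 1 and 3 lie in the band. A replicate 3 member with a fold of 1.75 and a −log10 q of 7.33 lies off it.

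The member with the highest −log10 q-value, 67.5, lay inside Fkbp5 (chr17:28474845-28475130), the gene of a co-chaperone of steroid receptors, with a fold of 7.33. Next came a member inside Arid5b (chr10:68193977-68194248), which encodes a DNA-binding ARID-domain protein, with 52.2 and a fold of 5.96. Both were chosen after their values were seen. The nearest SOX2 peaks lay 7811 and 13664 bp from these members, and the nearest peaks of another SOX15 library 142462 and 1224140 bp.

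The 394 replicate 2 members were ordered by q-value and divided into 4 groups of 98 or 99, a division made after the values were seen. The weakest group stood apart in position. With a −log10 q between 2.03 and 9.32, it had a SOX2 peak within 10 kb for 20 of 99 members (20.2%, 13.5 to 29.2). The next 3 groups had 6 of 98, 2 of 98 and 7 of 99. A peak of another SOX15 library lay within 10 kb of 13 of the 99 weakest members (13.1%, 7.84 to 21.2), and of 0 of 98, 1 of 98 and 0 of 99 in the next 3 groups. A count of 0 of 99 allows a share of up to 3.03%. The summit lay within 5 kb of a gene end for 26 of the 99 weakest members and for 9, 13 and 14 in the others. The share inside genes stayed between 53.1% and 61.6% in all 4 groups. The replicate 2 members with the most significant calls were thus seldom near a peak of either other SOX15 library.

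Several members carried the same deposited fold, p-value and q-value as another peak of their list, namely 3 of 21 in replicate 1, 123 of 394 in replicate 2 and 51 of 76 in replicate 3. Over all members the median width was 265 bp in replicate 1, 233 bp in replicate 2 and 270 bp in replicate 3.

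The members lay in genes to different degrees. The summit was inside a protein-coding gene for 7 of 21 members of replicate 1 (33.3%, 17.2 to 54.6), 226 of 394 of replicate 2 (57.4%, 52.4 to 62.1) and 31 of 76 of replicate 3 (40.8%, 30.4 to 52.0). Of the sequence in which a member could fall by the gene rule, 2532 Mb over 1 kb from every gene end, 38.6% is inside such a gene. The interval of replicate 2 lies above that share, and those of replicates 1 and 3 include it. The 2532 Mb was not reduced for assembly gaps or for sequence where reads cannot be placed. The 38.6% is therefore only an approximate reference. For comparison, 15 of 34 distal SOX15 regions of 2 or 3 libraries without a SOX2 peak were inside a gene (44.1%, 28.9 to 60.5). Of 137 distal SOX15 regions of 1 library with a SOX2 peak, 62 were (45.3%, 37.2 to 53.6). Of 4598 distal SOX2 regions without a SOX15 peak, 2132 were (46.4%, 44.9 to 47.8). The interval of these SOX2 regions also lies above 38.6%.

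In all, 245 genes held a member and 14 held at least 2. The genes that held replicate 2 members had a median length of 110935 bp, those of replicate 3 members 75421 bp and those of the 7 replicate 1 members 26104 bp. A long gene offers more bases, and the middle base of all protein-coding gene sequence falls in a gene of 138631 bp, while the median gene has 17329 bp.

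Replicate 1 members kept close to genes. Of its 21 members 15 (71.4%, 50.04 to 86.2) lay between 1 and 5 kb from a gene end, against 62 of 394 (15.7%, 12.5 to 19.7) in replicate 2 and 29 of 76 (38.2%, 28.1 to 49.4) in replicate 3. The median distance to a gene end was 3391 bp in replicate 1, 27108.5 bp in replicate 2 and 10044.5 bp in replicate 3. SOX15 regions of 2 or 3 libraries had a median of 8383 bp, and SOX2 regions had 28705.5 bp. Summits over 100 kb from every gene end numbered 0 of 21 in replicate 1, which allows a share of up to 14.3%, 82 of 394 (20.8%) in replicate 2 and 6 of 76 (7.89%) in replicate 3, against 21.8% of the SOX2 regions.

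Long non-coding RNA genes lay within 1 kb of the summit for 1 of 21 members of replicate 1, 46 of 394 of replicate 2 (11.7%, 8.87 to 15.2) and 12 of 76 of replicate 3 (15.8%, 9.27 to 25.6). Of the allowed sequence, again not reduced for gaps, 9.29% lies that close to such a gene. Of the 34 regions of 2 or 3 SOX15 libraries 9 (26.5%, 14.6 to 43.1) did. So did 605 of 4598 distal SOX2 regions without a SOX15 peak (13.2%, 12.2 to 14.2). Among distal SOX15 regions of 1 library with a SOX2 peak it was 14 of 137 (10.2%, 6.19 to 16.4).

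**Figure D2:**
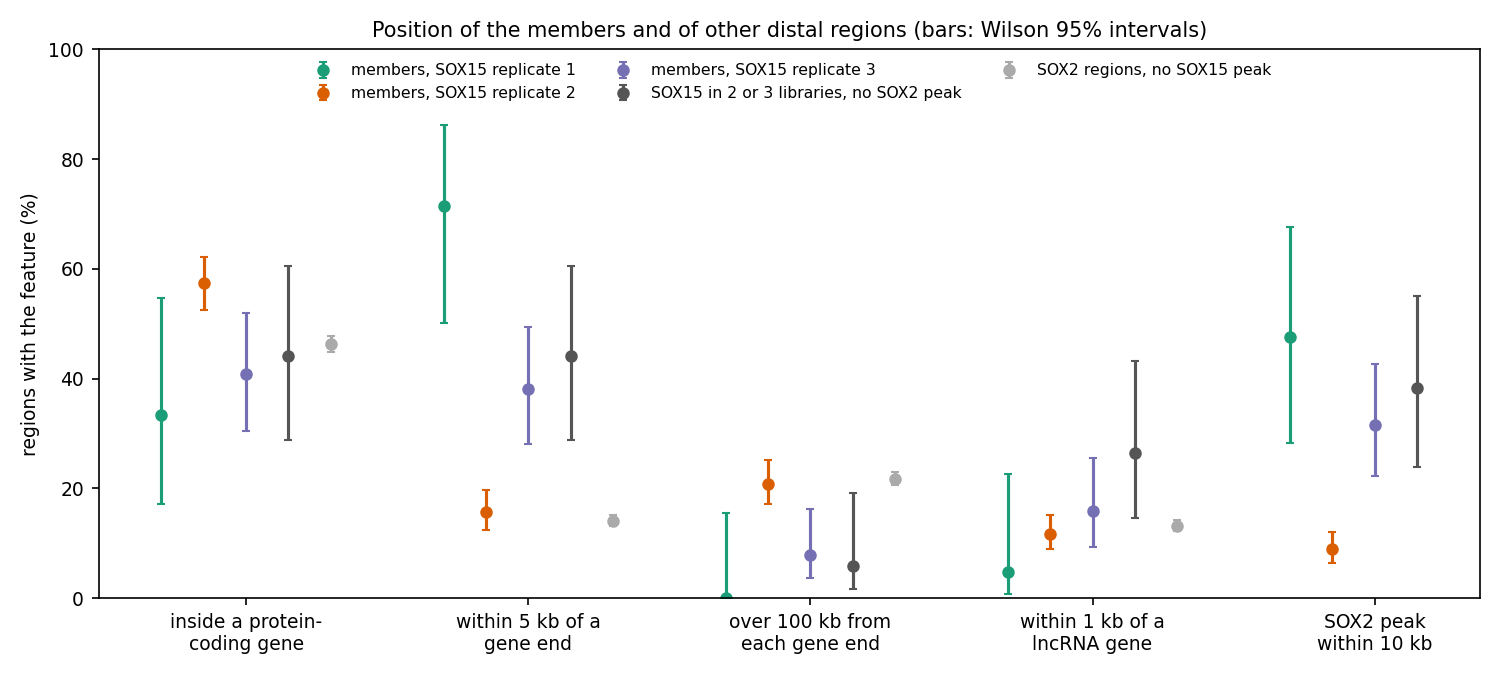
Share of regions with each of 5 positional features (y axis, percent), for the members of SOX15 replicates 1, 2 and 3, the 34 distal SOX15 regions of 2 or 3 libraries without SOX2, and the 4598 distal SOX2 regions without SOX15, with Wilson 95% intervals as bars. Within 5 kb of a gene end stood 71.4% of the replicate 1 members, 15.7% of the replicate 2 members and 38.2% of the replicate 3 members. The share with a SOX2 peak within 10 kb has no point for the SOX2 regions.

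Although the rule kept members off SOX2 peaks, a share of them lay beside one. A SOX2 peak lay within 10 kb of 10 of 21 members of replicate 1 (47.6%, 28.3 to 67.6), 35 of 394 of replicate 2 (8.88%, 6.46 to 12.1) and 24 of 76 of replicate 3 (31.6%, 22.2 to 42.7). Among regions of 2 or 3 SOX15 libraries without a SOX2 peak it was 13 of 34 (38.2%, 23.9 to 55.0). The median distance to the nearest SOX2 peak was 33555 bp in replicate 1, 155300 bp in replicate 2 and 50833.5 bp in replicate 3, against 26577.5 bp in the 34 regions. Replicate 2 members lay farther from SOX2 peaks than the members of the other libraries, a comparison of 3 libraries without a test. How much of the allowed sequence lies within 10 kb of a SOX2 peak was not computed, so these shares have no such reference.

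The 2 SOX2 lists gave the same order. Against SOX2 replicate 1, 8 of 21, 19 of 394 and 18 of 76 members of SOX15 replicates 1, 2 and 3 had a peak within 10 kb, and against SOX2 replicate 2 the counts were 8, 31 and 20. Members with neither a SOX2 peak nor a peak of another SOX15 library within 100 kb numbered 5 of 21 (23.8%) in replicate 1, 238 of 394 (60.4%, 55.5 to 65.1) in replicate 2 and 24 of 76 (31.6%) in replicate 3.

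**Figure D3:**
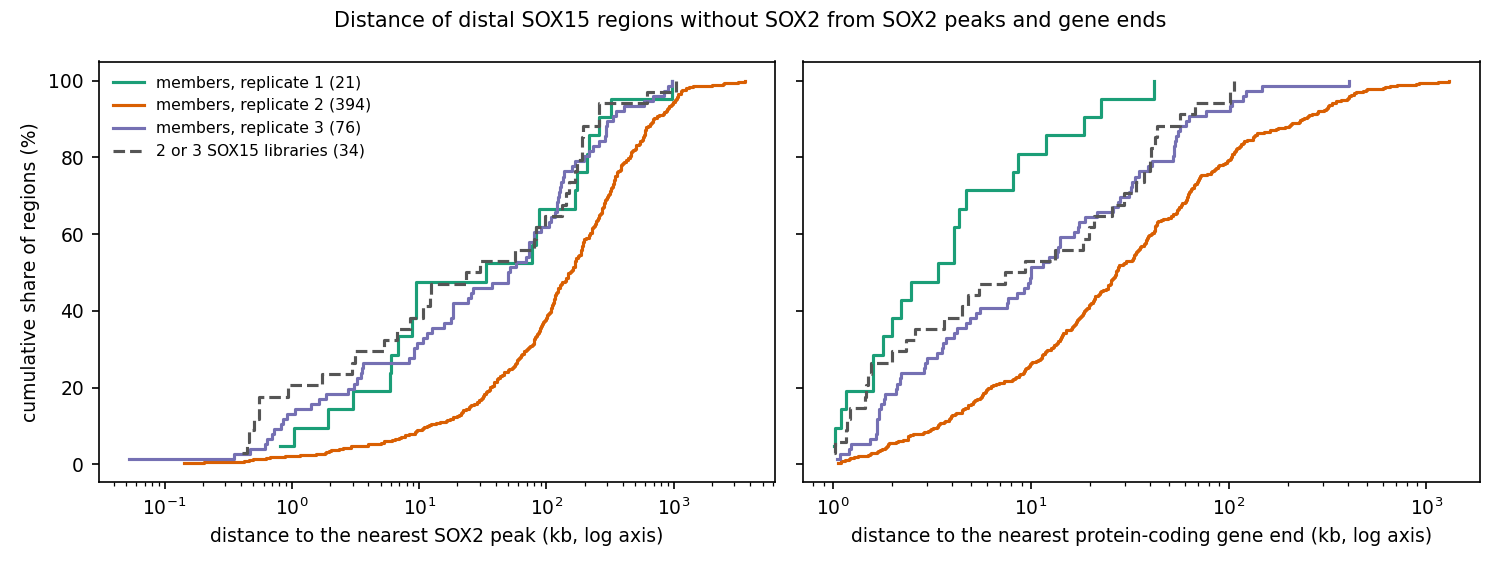
Cumulative share of regions (y axis, percent) by distance to the nearest SOX2 peak (left) and to the nearest protein-coding gene end (right), both in kb on a log axis, for the members of each SOX15 replicate and, dashed, the 34 regions of 2 or 3 SOX15 libraries. The curve of replicate 2 lies to the right of the others over most of both panels, with a median of 155300 bp to a SOX2 peak and 27108.5 bp to a gene end.

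The members nearest to SOX2 show how narrow the line can be. A replicate 3 member near Nanog (chr6:122702613-122702883) lay 53 bp from a SOX2 replicate 2 peak, and a replicate 2 member near Rdm1 lay 142 bp from a SOX2 peak. A replicate 2 member on chromosome X lay 204 bp from one. Its summit was inside the pseudogene Gm14861 and 3319 bp from the long non-coding RNA gene Xist. Its nearest protein-coding gene, Tsx, was 61964 bp away. Just outside the rule, a replicate 2 region near Tbx3 shared 26 bp with a SOX2 peak and had a fold of 5.91, and a replicate 1 region near Insyn1 shared 35 bp and had a fold of 5.56.

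The same holds for the gene ends. The members closest to the limit were those near Atf4, a transcription factor of the amino acid stress response, at 1015 bp with a fold of 4.59, and in Yars, a tRNA synthetase gene, at 1022 bp with a fold of 5.13, both from replicate 1. Left out at 980 bp was a replicate 3 region near Erbb3 with a fold of 4.93, and at 976 bp another near Mcm7 with a fold of 6.13. Peaks of another SOX15 library came within 47 bp of a replicate 3 member whose nearest gene is Esp38, within 104 bp of a replicate 3 member near Clstn3, and within 134 bp of a replicate 2 member near Hnrnpa3. Regions that shared 32 bp (near Actg1) and 33 bp (in Dym) between libraries were left out.

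The highest-ranked replicate 1 members lay in or beside genes of varied function. The first (chr2:27539754-27540034, fold 8.99) was 3391 bp from Wdr5, a subunit of histone methyltransferase complexes, and its summit lay inside Gm25541, a small nuclear RNA gene. The second (chr2:165900554-165900925, fold 8.43) was 1790 bp from Zmynd8, a chromatin reader, and 1926 bp from a SOX2 peak. Further members lay beside Myh3, the embryonic muscle myosin heavy chain (7.66), in Asns, asparagine synthetase (7.01), beside Fmc1, a mitochondrial assembly factor (6.96), and beside the histone gene H4c14 (6.70).

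The highest-ranked replicate 2 members lay far from SOX2 peaks, as did many of the 394, whose median distance was 155300 bp. The first (chr17:87152014-87152252) had a fold of 9.16 and a −log10 q of 33.5, and lay 14482 bp from Socs5, a suppressor of cytokine signalling, with the nearest SOX2 peak 271583 bp away. The second (chr3:11739791-11740084, fold 9.14) lay in a gene-poor stretch, 1299810 bp from its nearest protein-coding gene Snx16. The third (chr3:138837315-138837716, fold 9.10) lay inside the tetraspanin gene Tspan5. The fourth lay inside Npy5r, a neuropeptide Y receptor gene (8.98). The fifth (8.82) had Slc8a1, a sodium-calcium exchanger gene, as its nearest gene, 303712 bp away. The next 3 lay inside Atg7, an autophagy gene (8.77), Prkce, a protein kinase C gene (8.61), and Wars, a tRNA synthetase gene (8.55).

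These 8 members had SOX2 gaps between 53283 bp (Atg7) and 364040 bp (Prkce), and −log10 q-values between 14.8 (Slc8a1) and 41.9 (Npy5r). None had a peak of another SOX15 library within 1 Mb.

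Replicate 3 placed its highest members closer to SOX2. The first (chr16:25524656-25525534, fold 9.22) was 101510 bp from Tprg, 612 bp from a SOX2 peak and 615 bp from a SOX15 replicate 1 peak. The second (chr9:120133210-120133566, fold 8.96) was 1049 bp from Rpsa, and the fourth and the eighth were 1213 bp from Rps9 (7.77) and 1839 bp from Rps19 (6.82). These 3 genes encode proteins of the small ribosomal subunit. Others lay in Dym (7.87), near the phosphodiesterase gene Pde4b (7.59) and in the extracellular matrix gene Mmrn2 (6.89).

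Of these replicate 3 members, those at Tprg, Dym and Rps9 had a SOX2 peak within 1 kb, at 612, 351 and 848 bp. Those at Pde4b, Rpsa, Mmrn2 and Rps19 had none within 10 kb.

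Ribosomal protein genes, a class looked at after these values were seen, were the nearest gene for 3 of 76 members of replicate 3 and 1 of 21 of replicate 1 (Rplp1, fold 4.86), but for 0 of 394 of replicate 2. Such genes are 84 of the 21631 protein-coding genes (0.388%). That is a share of genes and not of regions, so it is no matched reference for these counts. With so few regions the difference between libraries is not resolved.

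Few members lay beside a small RNA gene. Within 1 kb of a small nuclear, small nucleolar, transfer, ribosomal or guide RNA gene lay 2 of 21 members of replicate 1 (9.52%, 2.65 to 28.9). The counts were 1 of 394 (0.254%) in replicate 2 and 2 of 76 (2.63%, 0.725 to 9.10) in replicate 3. Over all 491 members the share was 1.02% (0.436 to 2.36). For comparison, it was 2 of the 34 regions of 2 or 3 SOX15 libraries, and 18 of the 4598 distal SOX2 regions (0.391%, 0.248 to 0.618). Those of replicate 1 were the member in Gm25541 near Wdr5 and the member 239 bp from the arginine tRNA gene n-TRcct1 near Fmc1. In replicate 2 it was the member near Rdm1, 932 bp from the small nuclear RNA gene Gm23971, with a fold of 5.997. In replicate 3 they were a member 300 bp from Scarna2, a guide RNA of Cajal bodies (6.73), and a member 32 bp from the valine tRNA gene n-TVaac2 (4.98). Y RNA genes, another class of small RNA gene, were left out of these counts. A replicate 1 member with Pdia4 as its nearest protein-coding gene (5.29) lay 120 bp from the Y RNA gene Rny1, and was added after its values were seen. Reads from near-identical copies of such genes can be split among them, so the value at any copy is uncertain.

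Genes of the stem cell network were among those with members nearby, and most of these members had a SOX2 peak within 10 kb. Among all 491 members, 69 (14.1%, 11.3 to 17.4) had one. The density of SOX2 peaks around these genes was not examined. Over 9 gene lists with 141 genes, 18 genes (12.8%) had a member within 50 kb of the gene body, and over all 21631 protein-coding genes 846 (3.91%) did. By library the counts were 2 of the 141 for replicate 1 (0.328% of all genes), 12 for replicate 2 (2.96%) and 4 for replicate 3 (0.763%). Long genes and genes in dense neighbourhoods have more chance to lie within 50 kb of a member, and this was not adjusted for, so the list counts are descriptions.

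Of the 15 genes on the core pluripotency list 4 had a member, Nanog and Pou5f1 from replicate 3 and Otx2 and Lin28a from replicate 2. Otx2 is also on the formative list. Sox2 itself had none within 50 kb. Nanog, a homeodomain factor of naive cells, had 2 replicate 3 members. The first, 4744 bp from the gene, had a fold of 6.58 and lay 53 bp from a SOX2 replicate 2 peak of fold 7.82, with the nearest SOX2 replicate 1 peak 4384 bp away. The second (chr6:122716062-122716476) had a fold of 5.51, 1685 bp from the gene. Pou5f1, which encodes OCT4, had a replicate 3 member of fold 4.55 (chr17:35514964-35515172) at 4353 bp, at percentile 9.15 of its list.

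The replicate 2 members within 50 kb of genes on the core list lay at different distances from SOX2. The Otx2 member lay inside the gene with a fold of 4.93, 2933 bp from a SOX2 peak. The member counted for Lin28a, which encodes an inhibitor of let-7 processing, lay 39995 bp from that gene and 62455 bp from a SOX2 peak. It had a fold of 5.29 and a −log10 q of 4.77. Its nearest gene was Hmgn2, 1404 bp away.

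Among 18 naive pluripotency genes 4 had a member. The Esrrb member of replicate 3 (chr12:86489384-86489683, fold 6.47) lay inside this nuclear receptor gene, and SOX2 peaks of folds 16.6 and 17.0 in SOX2 replicates 1 and 2 lay about 9107 bp away. The Tdh member of replicate 3 (6.02) lay 2909 bp from this threonine dehydrogenase gene and 10653 bp from a SOX2 peak. The Tbx3 member of replicate 2 (chr5:119680734-119680943, 4.60) lay inside the gene, 424 bp from a SOX2 replicate 2 peak of fold 18.2. The Zfp42 member of replicate 1 (5.03) lay 747 bp from a SOX15 replicate 2 peak of fold 7.27 and 1034 bp from a SOX2 peak. Zfp42 encodes REX1, a marker of the naive state.

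Of the 8 members counted for these core and naive genes other than the second at Nanog, those for Nanog, Esrrb, Pou5f1, Otx2, Tbx3 and Zfp42 had a SOX2 peak within 10 kb. Those for Tdh and Lin28a did not.

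The trophectoderm and skeletal muscle lists each had 3 of 15 genes (20%) with a member, against 3.91% of all protein-coding genes. The core and naive pluripotency lists had 26.7% and 22.2%, and the housekeeping list 11.1%. A share above that of all genes was thus not particular to the trophectoderm and muscle lists. The 3 trophectoderm genes had theirs all from replicate 2, with Krt8 and Krt18 sharing 1 member (fold 4.66) and Gata3 32824 bp from another (3.59). Hand1 had none within 50 kb. In the muscle list there were 2 replicate 2 members inside Ttn, the titin gene (5.87 and 3.35), a replicate 2 member 4982 bp from Mef2d, a muscle transcription factor gene (4.68), and the replicate 1 member beside Myh3. Foxk1 had none within 50 kb.

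Of 19 SOX family genes only Sox14 had a member, 49302 bp away (5.45, replicate 2), and Sox15 had none. Of 18 WNT pathway genes only Lgr5 had a member, inside the gene (4.97, replicate 2). Of 14 formative genes only Otx2 had one, the same member as counted for the core list, and 0 of 14 LIF pathway genes did. The housekeeping list, included as a contrast, had 2 of 18 (Gapdh and Rplp0, both from replicate 2 and over 20 kb from the member), or 11.1%. The 3 low-ranked genes Pou5f1, Tbx3 and Zfp42, and Gata3, Gapdh and Rplp0, fall outside the naming rule and were chosen after their values were seen.

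Most members were alone, and a few stood in runs. Within 100 kb, 17 runs held 2 members, 2 held 3 and 2 held 4. Of the runs of 4, the shorter was inside Slc25a12, a mitochondrial carrier gene, where 4 replicate 3 members lay within 8988 bp (chr2:71350018-71359005) with folds from 3.81 to 5.96 and no SOX2 peak within 291175 bp. Inside Spats1, 3 replicate 2 members and 1 replicate 3 member lay within 9032 bp (chr17:45449415-45458446) with folds from 5.35 to 6.43, the closest peaks of different libraries being 687 bp apart. In Spats1 different libraries therefore had peaks in the same stretch without sharing a base.

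The lowest folds came from chromosome 17. A replicate 2 member of fold 1.62 (chr17:39843526-39843808) and a replicate 3 member of fold 1.53 (chr17:39846325-39846535) lay within a span of 3010 bp, and the second was inside Rn18s-rs5, a pseudogene related to the 18S ribosomal RNA. Reads of repeated ribosomal DNA map ambiguously. Elsewhere in the genome, a replicate 3 member with Axin2 as its nearest protein-coding gene had a fold of 1.75 with a −log10 q of 7.33. These 3 members were picked out for their low folds.

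Along the genome replicate 2 members were found on each of the 20 chromosomes with peaks. Per 10 Mb they were most frequent on chromosomes 15 (2.62) and 11 (2.56) and least frequent on chromosome X (0.479, 8 members). Chromosome 11 also holds 79 of all 672 replicate 2 peaks, and chromosome 15 holds 35. Replicate 1 had 6 of its 21 members on chromosome 6, where 13 of its 217 peaks lie. Replicate 3 had 10 of 76 members on chromosome 11, where 56 of its 437 peaks lie, a like share. Neither had a member on chromosome X, where the lists hold 1 and 3 peaks. The labels do not say how many X chromosomes the cells carry.

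**Figure D4:**
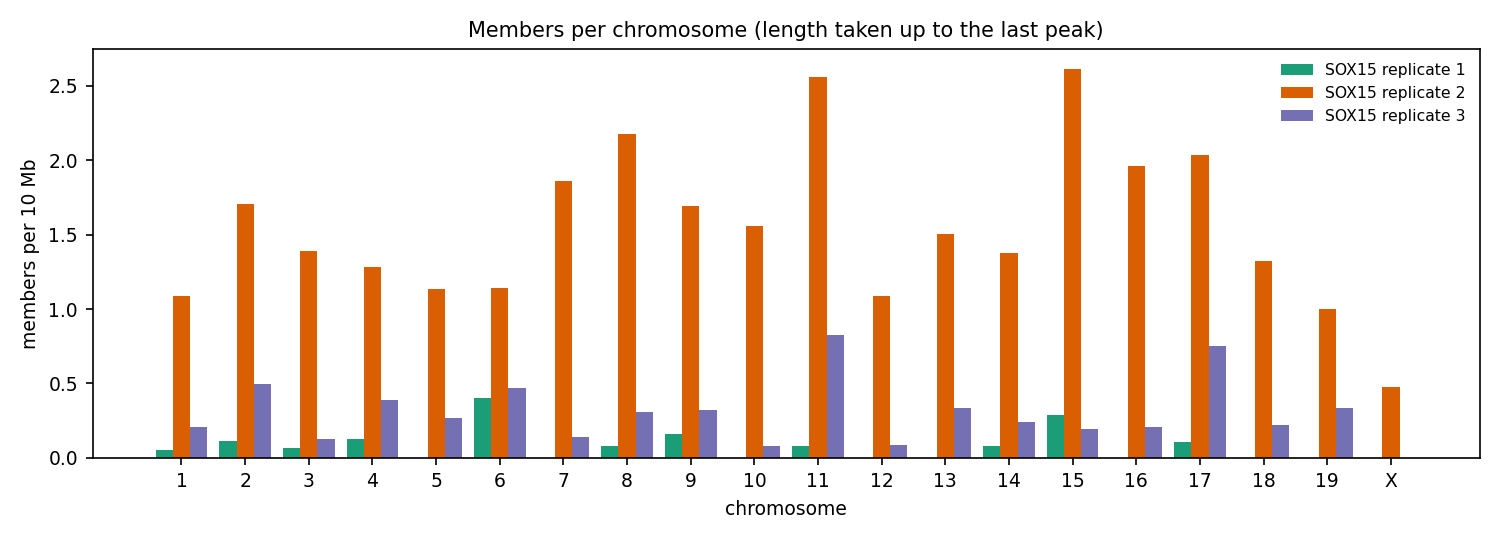
Members per 10 Mb (y axis) on each chromosome (x axis), with the length taken up to the last peak, as bars for SOX15 replicates 1, 2 and 3. Replicate 2 has the tallest bar on every chromosome, from 0.479 on chromosome X to 2.62 on chromosome 15.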

How the data were processed

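ChIP-seq lists of HA-tagged SOX15 (3 libraries) and SOX2 (2 libraries) were used. The submitters' processing notes list Bowtie2, MACS2, deepTools and mm10 and give no version. Each peak list belongs to 1 sample, so the authors called peaks per sample. The authors' deposited values per peak are a fold enrichment (linear ratio), p-value and q-value as −log10, a whole-number score and the position of the summit. The sources used here do not name the control used for calling.

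Peaks were merged at an overlap of 1 bp. Summits were compared with the RefSeq gene table of GRCm38.p6, which gives no strand, so a gene end can be 5′ or 3′. Shares carry Wilson 95% intervals, and the limit of a count of 0 is 3 counts. No test was run, because each region comes from 1 library and regions are not replicates. The procedure recovered 150 of 150 planted members on simulated data. Sample titles gave the groups and replicate numbers. The members, gene lists and rules were chosen with earlier results of these data known.

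Named genes were those nearest to the 8 members of highest fold percentile per library, small RNA genes within 1 kb, up to 12 listed genes within 50 kb by rank of the member, the regions beside each limit, the 3 members nearest to a SOX2 peak and to another SOX15 library, and the 3 runs with the most members. Some named items are not reported here. Alternatives changed the merging, the q-value, SOX2 and gene-end limits, the distances and the libraries. A motif search in the members was planned and not run, since no genome sequence was used here. Tables were computed with Python 3.11.15 (pandas 2.3.3, numpy 2.4.6 and scipy 1.17.1) and plotted with matplotlib 3.10.9.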

Additional observations from a re-analysis of the deposited data

How the results depend on the processing

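Of 168 values under alternative settings 144 moved by less than their interval, or for counts by less than 1.5 times. Merging SOX15 peaks up to 1 kb apart gave a SOX2 peak within 10 kb for 10.2% of all members (14.1% as reported) and 22.2% of replicate 3 members. Requiring no SOX2 peak within 1 kb gave 10.6% and 21.2%. A gene-end limit of 5 kb gave 9.61% of all members, with 6 members in replicate 1 and 47 in replicate 3. A −log10 q of at least 5 left 25 members in replicate 3. Counting SOX2 peaks within 50 kb gave 29.5% of all members, 24.4% in replicate 2 and 50% in replicate 3. Counting non-coding genes and pseudogenes within 5 kb gave 23.2% of all members (14.7% within 1 kb), 20.6% in replicate 2 and 34.2% in replicate 3. Genes with a member numbered 379 within 10 kb and 1434 within 100 kb (846 within 50 kb).

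With 1 ChIP library left out in turn, the number of members ranged from 124 to 507, the share inside a protein-coding gene from 40.3% to 55.3%, the share near a non-coding gene or pseudogene from 14.6% to 24.2%, and the share with a SOX2 peak within 10 kb from 9.98% to 36.3% (5.53% to 10.4% in replicate 2). Without SOX15 replicate 2, 124 members were left, 40.3% of them inside a gene and 36.3% with a SOX2 peak within 10 kb. The values over all members are therefore mostly those of replicate 2. In an alternative chosen after seeing the data, genes with a member ranged from 229 to 784 and listed genes from 6 to 16 with a SOX15 library left out, lowest without replicate 2. Of the 24 members named by rank 9 stayed members under all 9 alternatives that keep their library. No paired analysis was possible because each member comes from 1 library and the results come from no test. The depth of the libraries is unknown, so no limit from depth can be given.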
